A study of Mus musculus with 6 samples.

Results

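The genes described here belong to the major histocompatibility complex (MHC) and to the machinery that prepares peptides for it. They were taken from the array's platform annotation as every symbol starting with H2- plus 13 named genes of antigen processing, with the probe of highest mean log2 intensity standing for each gene. This gave 15 of the 17742 genes named on the array, read by 18 of its 26423 probes. The annotation writes symbols without hyphens, so H2AA was matched to H2-Aa as its unique synonym. H2AB1 fits both H2-Ab1, the class II beta chain, and H2ab1, a histone gene, and is called H2AB1 throughout. No probe was named for a class I heavy chain (H2-K1, H2-D1 or an H2-Q, H2-T or H2-M gene), so these are not analysed here. Class I is represented by its light chain B2m and its loading and proteasome genes, class II by H2-Aa, H2AB1, Cd74 and Ctss, and the non-classical molecules by Cd1d1 and Mr1.

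MHC class I molecules show peptides from inside the cell to CD8 T cells, and nearly all nucleated cells make them. The immunoproteasome cuts the peptides, the TAP transporter carries them into the endoplasmic reticulum, tapasin loads them, and beta-2-microglobulin completes the complex. Class II molecules, made mainly by dendritic cells, macrophages and B cells, show peptides of endocytosed protein to CD4 T cells, with the invariant chain CD74 guarding the groove until cathepsin S removes it. Healthy brain tissue is known for low MHC expression, while barrier tissues such as the reproductive tract hold many class II-bearing cells.

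RNA came from tissues of female BALB/c mice that received SHT (Sheng-Hua-Tang), a herbal decoction, orally at 200 mg/kg for 7 days, or no treatment (mock). Whether 1 mouse gave all 3 tissues, and whether mice were pooled, is not in the labels. The labels give 6 groups, SHT and mock in brain, SHT and mock in ovary, and SHT and mock in uterus, with 1 array in each and no age stated. No reading therefore has a replicate, no difference within a tissue has a test, and the number of arrays limits every value. Median intensities were 179 to 224.

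The tissue markers went against the labels of 4 arrays, so arrays are named by label only and no difference is assigned to a tissue or to SHT. The 6 brain markers on the array summed to 144712 on the array labelled SHT ovary and 143604 on the array labelled mock brain, against 615 on the array labelled SHT brain. The 9 ovary markers summed to 98025 on SHT brain and 144563 on mock uterus, and to at most 4544 elsewhere. The 5 markers of squamous epithelium summed to 126407 on SHT uterus and 160914 on mock ovary, against 857 to 1321 elsewhere. The 9 uterus markers summed to 102849 and 106595 on those last arrays, to 57495 on SHT brain and 51181 on mock uterus, and to at most 7494 on the remaining arrays. Acta2 alone read 42276 on SHT brain, 45362 on mock uterus, 59636 on SHT uterus and 60854 on mock ovary. It thus made up most of the sum on each of these 4 arrays. As background, the 529 olfactory receptor genes had 95th percentiles of 275 to 541, and a reading under its array's percentile is called inside the background spread. Where the dimmer array of a pair read inside it, the percentile replaced the reading and the fold is given as "at least". Folds and log2 differences are SHT over mock and relative to the median gene of the pair.

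Promoters are printed for 4 genes whose windows hold letters of known MHC control elements. As background, class II promoters carry an X box and a Y box, the Y box being an inverted CCAAT sequence, and the coactivator CIITA acts on the proteins bound there. B2m and class I genes carry a related module used by NLRC5, and interferons act through a response element with the core GAAA, any 2 bases, GAAA. Windows run from 250 bases before to 50 after the RefSeq start site in GRCm38.p6, the C57BL/6J reference and not BALB/c. Capitals mark the letters ATTGG (an inverted CCAAT), the letters TGACG (of the X box region) and the interferon response core, on either strand.
H2-Aa, chr17:34287774-34288073, minus strand: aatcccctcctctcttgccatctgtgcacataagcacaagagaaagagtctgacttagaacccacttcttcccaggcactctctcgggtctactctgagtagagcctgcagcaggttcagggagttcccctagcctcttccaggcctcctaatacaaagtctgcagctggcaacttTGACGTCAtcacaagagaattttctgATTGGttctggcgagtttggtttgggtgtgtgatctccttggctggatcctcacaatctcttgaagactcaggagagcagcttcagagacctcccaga
B2m, chr2:122147437-122147736, plus strand: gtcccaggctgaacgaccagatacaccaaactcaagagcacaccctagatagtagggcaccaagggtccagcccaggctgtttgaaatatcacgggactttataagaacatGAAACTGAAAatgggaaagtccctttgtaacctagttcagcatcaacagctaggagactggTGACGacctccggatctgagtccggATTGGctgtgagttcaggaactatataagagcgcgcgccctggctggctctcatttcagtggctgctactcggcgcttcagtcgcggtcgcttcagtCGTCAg
Tap1, chr17:34187306-34187605, plus strand: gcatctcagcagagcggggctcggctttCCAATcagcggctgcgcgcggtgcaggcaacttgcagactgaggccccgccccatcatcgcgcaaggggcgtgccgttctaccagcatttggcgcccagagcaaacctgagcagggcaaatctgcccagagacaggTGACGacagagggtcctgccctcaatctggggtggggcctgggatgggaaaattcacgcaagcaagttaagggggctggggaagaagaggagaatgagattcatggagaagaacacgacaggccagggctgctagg
Ctss, chr3:95526536-95526835, plus strand: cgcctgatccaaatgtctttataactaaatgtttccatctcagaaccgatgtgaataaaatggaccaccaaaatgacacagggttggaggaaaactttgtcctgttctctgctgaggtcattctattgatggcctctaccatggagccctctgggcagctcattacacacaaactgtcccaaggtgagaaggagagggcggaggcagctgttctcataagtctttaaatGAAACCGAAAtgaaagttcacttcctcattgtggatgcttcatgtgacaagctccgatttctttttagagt

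The 4 windows differ in what they hold. In H2-Aa, ATTGG begins at base -48 from the start site, and TGACG is found on both strands in overlapping letters, at -74 and -71. B2m holds GAAACTGAAA at -139, TGACG at -78 and 45, and ATTGG at -53. Tap1, which encodes a TAP subunit, and Psmb9 lie head to head, and 275 of the 300 bases of their windows are the same, so the ATTGG and the TGACG of both are the same letters. Ctss holds only GAAACCGAAA, which begins at -21. A window was found for 9 of the 14 genes with a unique name. ATTGG was in 5 of the 9 and in 37.4% of all 32851 promoter windows, TGACG in 4 and 20.8%, and the interferon response core in 2 and 3.44%. A match describes letters and does not show a working site.

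Of the class II genes, H2-Aa, H2AB1 and Cd74 were low on the same arrays and Ctss was not. H2-Aa, the alpha chain of the I-A molecule, read 10346 on the array labelled SHT brain against 438 on mock brain, 438 on SHT ovary against 18236 on mock ovary, and 27873 on SHT uterus against 12147 on mock uterus. It was thus inside the background spread on mock brain and just outside it on SHT ovary, where the percentile was 403. The difference was at least 20.7-fold higher in the pair labelled brain, 45.5-fold lower in the pair labelled ovary and 2.32-fold higher in the pair labelled uterus. The gene is polymorphic between strains, and the probe's match to the BALB/c allele was not tested.

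Cd74, the invariant chain, had the same 2 highest and 2 lowest arrays as H2-Aa. It read 1451 on SHT brain against 88.1 on mock brain, 67.7 on SHT ovary against 2437 on mock ovary, and 4358 on SHT uterus against 1828 on mock uterus. The 2 low arrays were inside the background spread, so the pair labelled brain differed at least 2.91-fold and the pair labelled ovary at least 6.61-fold in the opposite direction. SHT uterus was 2.41-fold higher than mock uterus. A second probe of Cd74 read 801 on SHT brain against 57.4 on mock brain, 50.2 on SHT ovary against 1477 on mock ovary, and 2585 on SHT uterus against 833 on mock uterus. The remaining probe read 218 on SHT brain against 251 on mock brain, both inside the background spread, so it gives no difference there. It read 240 on SHT ovary against 408 on mock ovary and 662 on SHT uterus against 277 on mock uterus, the same directions as the other probes, with the dimmer array inside the spread in each. As read, with no bound set on readings inside the spread, the log2 difference of Cd74 was 2.67 with the mean of the 3 probes and 4.16 with the probe used in the pair labelled brain, and -3.74 and -5.30 in the pair labelled ovary.

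**Figure D1:**
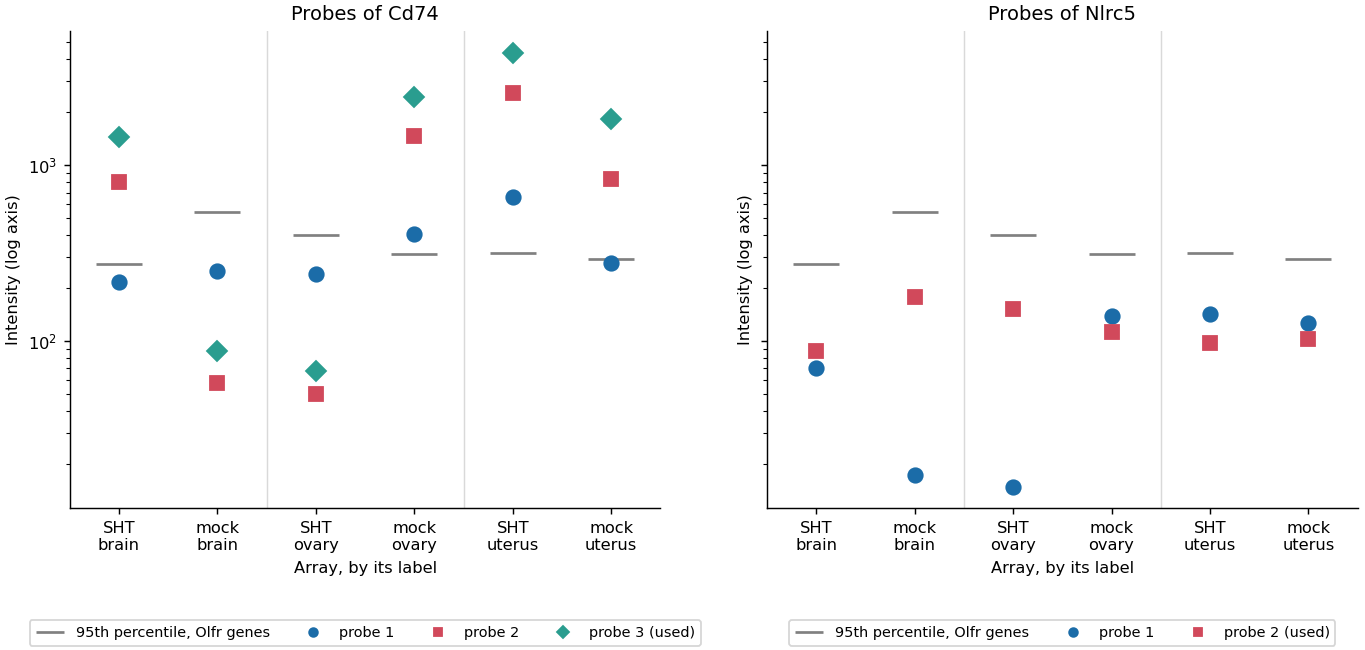
Intensity (log axis) of the 3 probes of Cd74 and the 2 probes of Nlrc5 on the 6 arrays, with a grey line at each array's 95th percentile of olfactory receptor genes. Probe 1 of Cd74 stays between 218 and 662 while the others span more than a log unit, and the probes of Nlrc5 run in opposite directions, all below the grey lines.

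H2AB1 read 709 on SHT brain against 88.1 on mock brain, 76.3 on SHT ovary against 1330 on mock ovary, and 1918 on SHT uterus against 634 on mock uterus. Whichever gene it measures, its 2 lowest and 2 highest arrays were those of H2-Aa and Cd74. Its differences were at least 1.42-fold higher, at least 3.61-fold lower and 3.06-fold higher in the pairs labelled brain, ovary and uterus. Ctss, which encodes cathepsin S, departed from the other class II genes. It read 2361 on SHT brain against 2060 on mock brain, 2748 on SHT ovary against 3128 on mock ovary, and 5333 on SHT uterus against 1653 on mock uterus. All 6 arrays were well outside the background spread, and Ctss differed by 1.24-fold in each of the first 2 pairs and by 3.26-fold in the pair labelled uterus. The enzyme is also made by microglia, the macrophages of the brain.

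Among the class I genes, B2m read 23439 on SHT brain against 7409 on mock brain, 8791 on SHT ovary against 19055 on mock ovary, and 36489 on SHT uterus against 22460 on mock uterus. It was far outside the background spread on every array, 3.43-fold higher in the pair labelled brain, 2.37-fold lower in the pair labelled ovary and 1.64-fold higher in the pair labelled uterus. Tapbp, which encodes tapasin, read 10433 on SHT brain against 2653 on mock brain, 2524 on SHT ovary against 6105 on mock ovary, and 10798 on SHT uterus against 11077 on mock uterus. Tapbp was 4.27-fold higher, 2.64-fold lower and 1.01-fold lower in these pairs, so the arrays labelled uterus were alike for it.

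The transporter genes pump peptides into the endoplasmic reticulum. Tap1 read 2060 on SHT brain against 185 on mock brain, 170 on SHT ovary against 1946 on mock ovary, and 2734 on SHT uterus against 2296 on mock uterus. Tap2, the partner subunit, read 3244 on SHT brain against 490 on mock brain, 481 on SHT ovary against 2000.2 on mock ovary, and 2609 on SHT uterus against 3886 on mock uterus. Both genes were lowest on SHT ovary and mock brain, where Tap1 lay inside the background spread on both and Tap2 on mock brain alone. Tap1 was at least 4.13-fold higher and Tap2 at least 6.503-fold higher in the pair labelled brain. In the pair labelled ovary Tap1 was at least 5.28-fold lower and Tap2 4.54-fold lower. For the pair labelled uterus neither reached 2-fold, with Tap1 1.20-fold higher and Tap2 1.47-fold lower.

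The 3 catalytic subunits of the immunoproteasome did not run together. Psmb8 (LMP7) read 5755 on SHT brain against 500.4 on mock brain, 505 on SHT ovary against 2139 on mock ovary, and 3517 on SHT uterus against 3537 on mock uterus. Psmb9 (LMP2) read 5521 on SHT brain against 352 on mock brain, 335 on SHT ovary against 2076 on mock ovary, and 3565 on SHT uterus against 4525 on mock uterus. Both were highest on SHT brain and lowest on SHT ovary and mock brain. Psmb10 (MECL-1) read 9919 on SHT brain against 8928 on mock brain, 10479 on SHT ovary against 5147 on mock ovary, and 8092 on SHT uterus against 6653 on mock uterus. Psmb10 was thus highest on SHT ovary, an array on which the other subunits were low, and its whole range was 2.04-fold. The differences in the pair labelled brain were at least 11.5-fold for Psmb8, at least 11.1-fold for Psmb9 and 1.21-fold for Psmb10. In the pair labelled ovary, Psmb8 was 4.63-fold lower, Psmb9 at least 5.63-fold lower and Psmb10 1.86-fold higher.

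Both non-classical molecules read here, Cd1d1 and Mr1, present lipids or metabolites in place of peptides. Cd1d1, which shows lipids to natural killer T cells, read 1513 on SHT brain against 169 on mock brain, 148 on SHT ovary against 1043 on mock ovary, and 3142 on SHT uterus against 2704 on mock uterus. It was at least 3.03-fold higher, at least 2.83-fold lower and 1.18-fold higher in the pairs labelled brain, ovary and uterus. Mr1, which shows vitamin B metabolites to mucosal-associated invariant T cells, read 204 on SHT brain against 120 on mock brain, 89.8 on SHT ovary against 552 on mock ovary, and 1208 on SHT uterus against 390 on mock uterus. It was inside the background spread on both arrays labelled brain and on SHT ovary. The pair labelled ovary differed at least 1.498-fold, lower on the SHT array, and SHT uterus was 3.13-fold higher than mock uterus. The non-classical genes parted in the pair labelled uterus, Mr1 passing 2-fold and Cd1d1 not.

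The transactivators could not be measured here. Ciita, the master regulator of class II transcription, read 80.7 on SHT brain against 53.6 on mock brain, 55.9 on SHT ovary against 149 on mock ovary, and 161 on SHT uterus against 91.2 on mock uterus. Nlrc5, its class I counterpart, read 88.0 on SHT brain against 178 on mock brain, 152 on SHT ovary against 113 on mock ovary, and 97.5 on SHT uterus against 103 on mock uterus. Every reading of both genes was inside the background spread, so no fold is given. The other probe of Nlrc5 ran the opposite way to the probe used, with 70.1 on SHT brain against 17.4 on mock brain and 14.9 on SHT ovary against 139.8 on mock ovary.

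**Figure D2:**
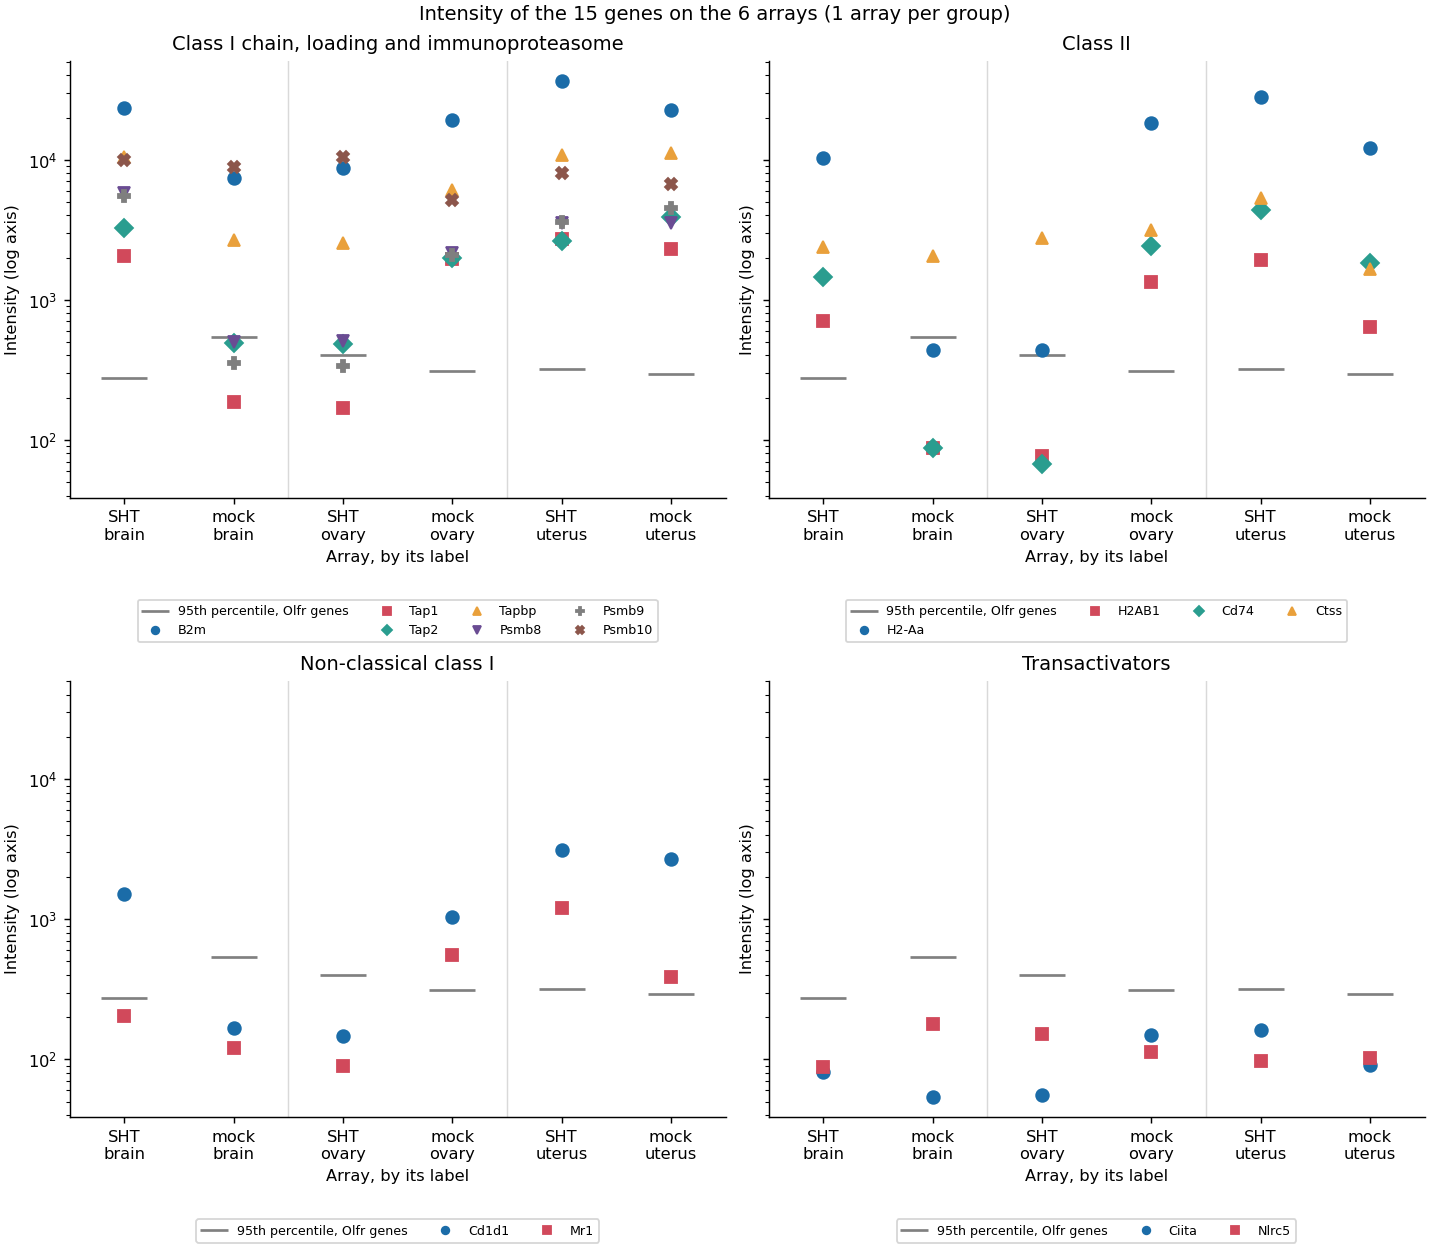
Intensity (log axis) of the 15 genes on the 6 arrays, in 4 panels by role, with a grey line at each array's 95th percentile of olfactory receptor genes. SHT ovary and mock brain hold the low readings of most class I, class II and non-classical genes, Psmb10 and Ctss excepted, and both transactivators lie below the lines everywhere.

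Across the arrays, 12 of the 15 genes had their 2 lowest readings on the arrays labelled SHT ovary and mock brain, the exceptions being Psmb10, Ctss and Nlrc5. Ciita is among the 12 although all its readings were inside the background spread, and Mr1 although its reading on SHT brain was too. Of the 12 genes outside the spread on all 4 other arrays, 10 had that order. That filter looks only at the arrays expected to be higher, so it favours the order, and no share of all genes was computed for it. Of the 13 genes whose mean over the 6 arrays passed the level floor (the median mean over all probes), 11 had that order, and 35.2% of the 10763 genes passing the same floor had it too. The highest reading was on SHT uterus for 8 of the 13, and for 26.7% of all genes passing the floor. The 4 class II genes and both non-classical genes were among those highest there. Of the 7 class I genes only B2m and Tap1 were, while Psmb8 and Psmb9 were highest on SHT brain, Tap2 and Tapbp on mock uterus and Psmb10 on SHT ovary.

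The first labelled comparison was SHT brain with mock brain. With the level floor taken over that pair, 12 members passed, of which 10 read 2-fold or more higher on the SHT array and 0 lower. Of all 10746 genes that passed, 24.7% were higher and 21.7% lower (46.5% either way). The 10 were B2m, Tap1, Tap2, Tapbp, Psmb8, Psmb9, H2-Aa, H2AB1, Cd74 and Cd1d1. These counts are of values as read, and at its bound H2AB1 did not reach 2-fold, which leaves 9. Median log2 differences, over all members as read, were 3.64 for the 4 class II genes, 2.84 for the 7 class I genes and 2.08 for the non-classical genes, against 0.08 for all genes above the floor. With bounds in place of readings inside that spread, these medians were 1.02, 2.09 and 0.80. Mr1, which has no fold in this pair, was set to 0 in the last. Bounds are smallest values, so these medians do not rank class I and class II.

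In SHT ovary against mock ovary the directions were the reverse. Here 13 members passed the floor, of which 11 read 2-fold or more lower on the SHT array and 0 higher. Of all 10692 genes that passed, 23.4% were lower and 23% higher (46.4% either way). The 11 were the same 10 genes and Mr1, which did not reach 2-fold at its bound, so that 10 remain. Median log2 differences were -4.78 for class II, -2.18 for class I and -2.85 for the non-classical genes, against 0.01 for all genes above the floor. At their bounds they were -2.29, -2.18 and -1.04. Without the subtraction of the median gene, Psmb10 was also counted, as 1 gene higher.

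In SHT uterus against mock uterus the classes separated. Again 13 members passed the floor, of which 5 read 2-fold or more higher on the SHT array and 0 lower. Of all 10765 genes that passed, 13.1% were higher and 8.26% lower (21.4% either way). The 5 were H2-Aa, H2AB1, Cd74, Ctss and Mr1, which is 4 of the 4 class II genes and 0 of the 7 class I genes. The class I differences lay between -0.56 (Tap2) and 0.72 (B2m) on the log2 scale, with a median of 0.01, and the class II differences between 1.21 and 1.71, with a median of 1.44. Both sets were outside the background spread on both arrays, so these values are not bounds. H2AB1, whose symbol also fits a histone gene, is counted here as class II, and without it the class II median was 1.27. Whether the classes differed beyond the variation between mice was not tested, since each group held 1 array. The 2 arrays also differed in tissue markers. Ovary markers summed to 4544 on SHT uterus against 144563 on mock uterus, and squamous markers to 126407 against 895. Between SHT uterus and mock ovary, both high in squamous markers, the median log2 difference was 0.38 for class I and 0.36 for class II. Between SHT brain and mock uterus, both high in ovary markers, it was 0.31 and 0.21. As log2 level from each gene's own mean over the arrays, the class II median was 1.65 on mock ovary against 0.82 on SHT brain. The class I median was 0.22 on mock ovary against 1.04 on SHT brain. The part of the tissue markers in the class difference was not tested. At a 3-fold threshold 3 genes remained counted in the pair labelled uterus, H2AB1, Ctss and Mr1.

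**Figure D3:**
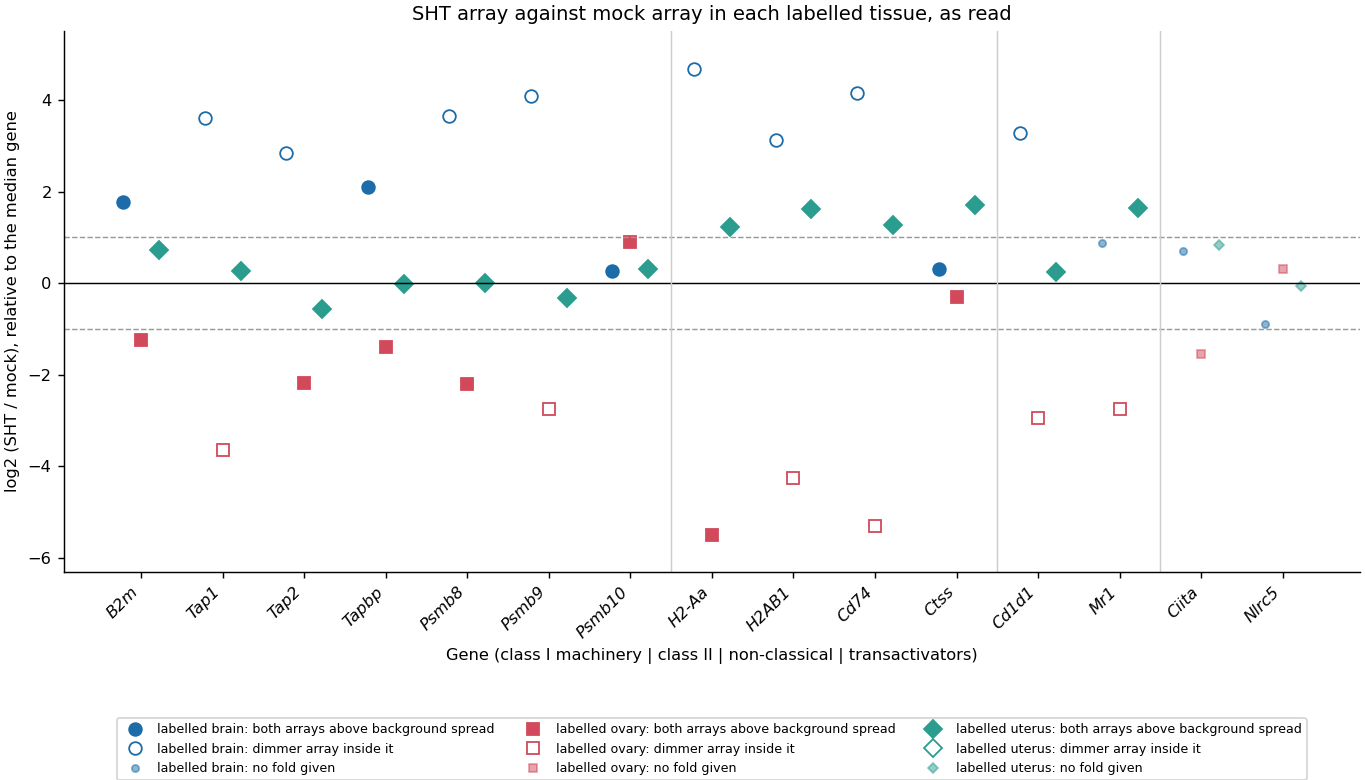
The log2 difference of SHT over mock, relative to the median gene, for each gene in the 3 labelled tissues. Filled marks have both arrays outside the background spread, open marks the dimmer array inside it, and small marks have no fold, while dashed lines mark 2-fold. Most genes lie above 0 in the pair labelled brain and below 0 in the pair labelled ovary, and in the pair labelled uterus the 4 class II genes lie above 1 and the 7 class I genes between -0.56 and 0.72.

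**Figure D4:**
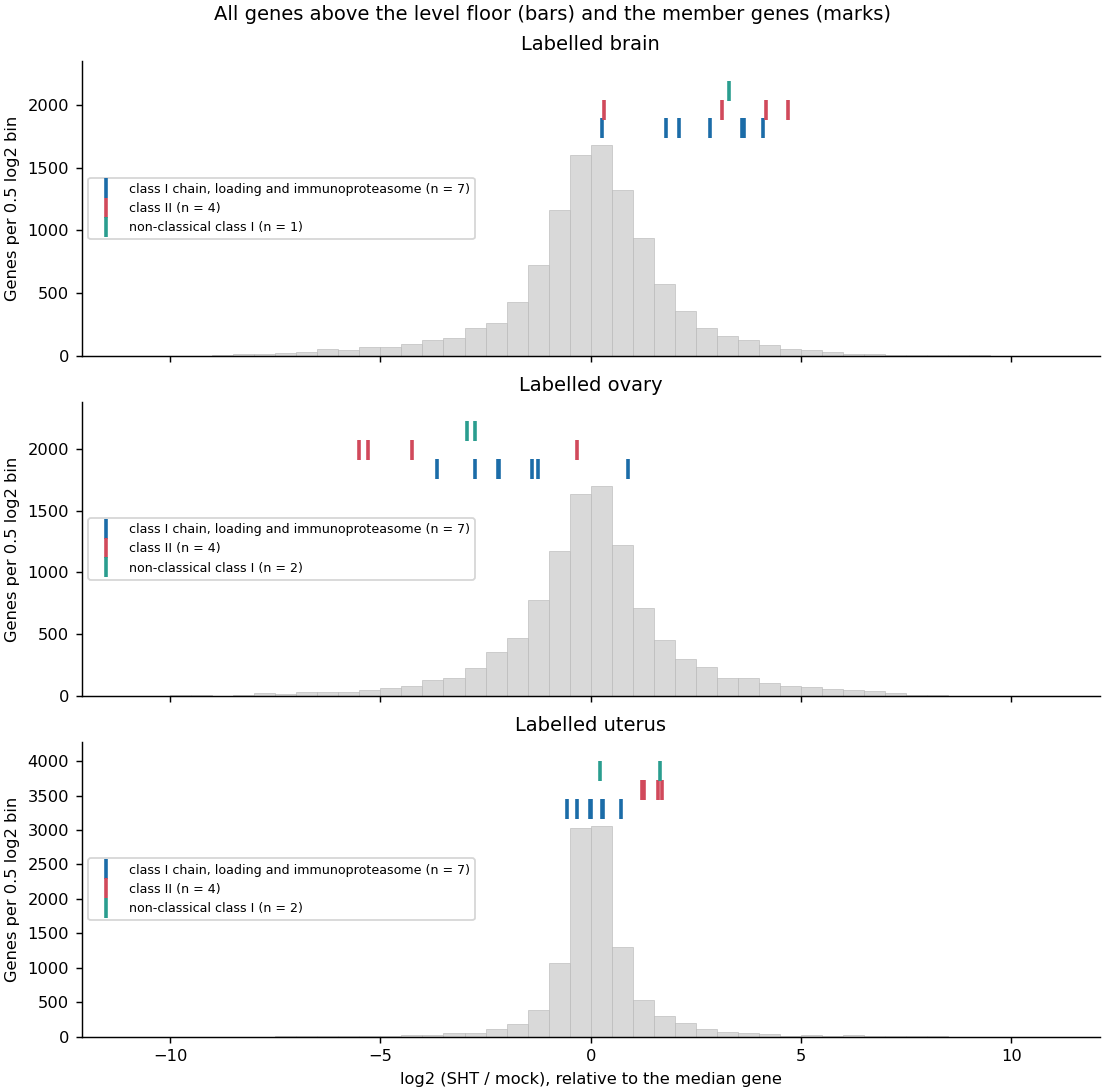
Histograms of the log2 difference, SHT over mock and relative to the median gene, for all genes above the level floor in each labelled tissue (10746, 10692 and 10765 genes), with marks for the members above the floor by role. In the pair labelled uterus the class I marks lie over the centre of the histogram and the class II marks to its right.

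The closest arrays by correlation over all probes did not share a tissue label. SHT ovary and mock brain correlated at 0.996 (Pearson, log2 intensity), and 0 of 8 members above the floor differed 2-fold between them, against 0.113% of all genes (0.0378% higher and 0.0756% lower on SHT ovary). The member that differed by the most was Ctss, 1.42-fold higher on SHT ovary. SHT brain and mock uterus correlated at 0.981, with 0 of 13 members and 6.39% of all genes past 2-fold (5.27% higher and 1.12% lower on SHT brain), and Psmb8 came nearest at 1.93-fold higher on SHT brain. SHT uterus and mock ovary correlated at 0.972, with 1 of 13 members and 11.2% of all genes past 2-fold (6.11% higher and 5.07% lower on SHT uterus). That member was Cd1d1, 2.39-fold higher on SHT uterus.

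The average SHT effect over the 3 labelled tissues was the 1 contrast with replication, although it measures the spread between labelled tissues and not between mice. Its blocks follow the labels, and every labelled pair holds at least 1 array whose markers oppose its label. The arrays of a block need not share a tissue, so the counts below cannot tell whether SHT had an effect. limma called 0 of 13 members above the floor and 0 of 10763 genes (0%) at an adjusted p under 0.05, and 0 members and 4 genes had an unadjusted p under 0.05. For H2-Aa the average log2 difference was 0.13 with a 95% interval from -5.74 to 5.99 (adjusted p = 0.99996, limma with Benjamini-Hochberg adjustment), which spans both directions seen above. The narrowest interval among the members was that of Psmb10, 0.49 with -0.52 to 1.49. For B2m it was 0.42 with -1.36 to 2.19. Without the pair labelled ovary, which ran opposite to the pair labelled brain, 3 of 13 members and 461 of 10763 genes had an unadjusted p under 0.05 in limma. Still 0 passed adjustment. Without the pair labelled brain 0 members and 126 genes had such a p, and without the pair labelled uterus 0 members and 4 genes.

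Genes that act with the members were read from lists of related function, and those above the level floor are counted here at their bounds. As read, 24.7% of all genes above the floor were 2-fold higher and 21.7% lower in the pair labelled brain. The shares were 23% and 23.4% in the pair labelled ovary, and 13.1% and 8.26% in the pair labelled uterus. No share of all genes was computed at bounds, so the list counts have no like share to stand against. In endosomal processing, 4 of 5 genes were at least 2-fold higher in the pair labelled brain, 2 lower in the pair labelled ovary and 1 lower in the pair labelled uterus. Ifi30, the lysosomal thiol reductase that unfolds class II antigens, read 4989 on SHT brain against 578 on mock brain, 536 on SHT ovary against 7157 on mock ovary, and 9113 on SHT uterus against 5365 on mock uterus. Its differences were 9.37-fold higher, 14.6-fold lower and 1.72-fold higher. Lgmn, an asparaginyl endopeptidase, had another pattern, with 33009 on SHT brain and 30416 on mock uterus and 6484 to 9292 elsewhere. Ctsl, cathepsin L, read 5270 and 5281 on SHT ovary and mock brain and 14835 to 22753 on the other arrays.

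Among proteasome subunits outside the immunoproteasome, 1 of 5 genes above the floor was at least 2-fold higher in the pair labelled brain, 1 lower in the pair labelled ovary and 0 either way in the pair labelled uterus. That gene was Psme1, a subunit of the interferon-induced activator, 3.83-fold higher and 3.26-fold lower in the first 2 pairs. Psmb6 and Psmb7, which Psmb9 and Psmb10 replace, reached at most 1.79-fold and 1.68-fold in any labelled pair. Psmb5, replaced by Psmb8 and named after its values were seen, reached at most 1.77-fold. Among partners in the endoplasmic reticulum, 2 of 3 genes above the floor were higher in the pair labelled brain, the chaperone Calr 2.92-fold and the tapasin-related Tapbpl at least 2.38-fold. Calr was 2.29-fold lower in the pair labelled ovary, and Pdia3 was inside the background spread on every array. In interferon gamma signalling, 5 of 9 genes were at least 2-fold higher and 2 lower in the pair labelled brain, 1 higher and 2 lower of 9 in the pair labelled ovary, and 1 higher of 8 in the pair labelled uterus. For the lists in this paragraph too, the shares of all genes as read are those given with endosomal processing. The receptor chain Ifngr1 was at least 2.92-fold higher, 2.85-fold lower and 2.21-fold higher in the 3 pairs, and Socs1, a feedback inhibitor, at least 2.14-fold higher, at least 4.36-fold lower and 1.34-fold higher. The probe named Ifng went the other way, at least 8.94-fold lower in the pair labelled brain and at least 7.12-fold higher in the pair labelled ovary. Of the X and Y box binding proteins 4 of 7 were on the array, with 0 of 3 above the floor past 2-fold in any labelled pair. Rfx5 differed by at most 1.30-fold, and Rfxap and Creb1 were inside the background spread throughout.

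Markers of antigen-presenting and other immune cells moved in part with these genes, and their part in the differences was not tested. In bulk tissue, fewer cells of a type and less RNA per cell cannot be told apart. The 9 macrophage and microglia markers on the array summed to 23370 on SHT brain against 19619 on mock brain, 23980 on SHT ovary against 29274 on mock ovary, and 46876 on SHT uterus against 26430 on mock uterus. C1qa alone read 10022 to 21783 and was the largest part of each of these sums. For the pair labelled uterus 6 of the 9 were at least 2-fold higher, among them Adgre1 (4.32-fold) and Itgam (at least 9.74-fold). As read, 13.1% of all genes above the floor were 2-fold higher in that pair. In the pair labelled brain Cd68 was higher and Cx3cr1 lower by 2-fold or more at their bounds, and in the pair labelled ovary 1 was higher and 3 lower. Of all genes, as read, 24.7% were higher and 21.7% lower in the pair labelled brain, and 23% and 23.4% in the pair labelled ovary. Neutrophil markers summed to 67257 on SHT uterus against 1542 on mock uterus, with 3 of 4 at least 2-fold higher at their bounds, and to 1525 to 11692 on the other arrays. Dendritic and Langerhans cell markers summed to 1005 on SHT brain against 3282 on mock brain, 3275 on SHT ovary against 717 on mock ovary, and 1418 on SHT uterus against 1315 on mock uterus. Itgax alone read 2789 on SHT ovary and 2756 on mock brain and so carried the direction of these sums. Of those 7 genes Flt3, Xcr1, Clec9a, Ccr7 and Cd207 were inside the background spread on every array. B cell markers summed to 575 to 1093, with Ms4a1 and Pax5 inside the background spread on every array, and T and NK cell markers to 1374 to 3677, with Cd3g, Cd4 and Cd8a inside it. Ncr1 made up most of the T and NK cell sum on SHT ovary and mock brain, and Cd3e on the other arrays.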

How the data were processed

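Each of the 6 samples was hybridised as Cy5-labelled amplified RNA to 1 array, per the labels' protocols. The authors deposited a table of processed intensity on a linear scale for 26423 probes, and limma is named without role or version, per the submitters' processing notes. Not given in the sources used here are background correction, scaling and probe filters. Groups came from the labels, and none was changed where markers opposed a label.

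Values under an array's 5th percentile among positive readings (5.66 to 6.66) were set to it before log2 was taken, and arrays were not scaled to each other. Of 20377 probes with 1 symbol, 18212 symbols were current in a RefSeq table (GRCm38.p6), 2126 were synonyms, 38 were kept and H2AB1 was ambiguous. The level floor is the median over all probes of the pair mean. For the average effect, limma 3.58.1 ran under R 4.3.3 (labelled tissue as a block, eBayes with trend, two-sided, Benjamini-Hochberg over 10763 genes). On simulated data of 10763 genes it recovered 100% of 100 genes changed 2-fold and 100% of 100 changed 4-fold, with 6 false calls. There the mock arrays served as both treatments, and each changed gene had the same change in every labelled tissue. Noise was that of the closest arrays, SHT ovary and mock brain, correlated at 0.996. The labelled pairs correlated at only 0.813 to 0.931, so this recovery says nothing of what could be found in them. All members are named. From each list of related genes up to 3 with the widest range on the log2 scale are named unless stated, and markers were picked after their values were seen. Members and lists were chosen with earlier results of these data known. Motifs were searched on both strands. Alternatives were other scalings, probe means, floors, thresholds, leaving out a labelled tissue, and leaving out H2AB1.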

Additional observations from a re-analysis of the deposited data

Results flagged for a closer look

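The SHT-minus-mock differences ran in opposite directions in different labelled tissues, and these contrasts between tissues were not tested, since each group held 1 array. The class I genes had a median log2 difference of 2.84 in the pair labelled brain and -2.18 in the pair labelled ovary. The class II genes had 3.64 in the pair labelled brain, -4.78 in the pair labelled ovary and 1.44 in the pair labelled uterus, the second opposite to both others. The non-classical genes had 2.08 in the pair labelled brain and -2.85 in the pair labelled ovary. In the pairs labelled brain and ovary, the low array was one of the 2 on which the brain markers were high.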

How the results depend on the processing

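No pairing by mouse was possible because the labels carry no replicate numbers. The average effect had labelled tissue as a block, and without it limma also called 0 members (3 genes at an unadjusted p under 0.05). Every labelled pair holds at least 1 array whose markers oppose its label, so no count could be made without such arrays. Of the recomputed counts, medians and array levels 144 held within 1.5 times and 12 moved further. Part of the 144 set 0 against 0, as in the 9 limma alternatives and the counts of members lower in the pairs labelled brain and uterus. The tally is therefore no measure of how stable the results are. Averaging the probes of each gene, class II had 2.90 in the pair labelled brain and -4.00 in the pair labelled ovary, and the transactivators 0.66 and -1.54. With members inside the background spread at their bounds (chosen after seeing the data), genes without a fold were set to 0. Then class I had 2.09, class II 1.02 and non-classical genes 0.80 in the pair labelled brain, with Mr1 set to 0. In the pair labelled ovary class II had -2.29 and non-classical genes -1.04. The transactivators had 0 there only because neither has a fold. Without subtraction of the median gene 1 member was higher in the pair labelled ovary, and at 3-fold 3 were higher in the pair labelled uterus. Without H2AB1 (chosen after seeing the data) the counts were 9 higher, 10 lower and 4 higher. Among recomputed single-gene differences 221 held and 4 moved, those of Cd74 and Nlrc5 in the pairs labelled brain and ovary with the mean of their probes. limma called 0 members under all 9 alternatives, which all kept the labels, so these counts cannot tell whether SHT had an effect. Readings inside the background spread on SHT ovary and mock brain limit the folds given as "at least".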

Other observations

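Probes named for 4 immune genes read high on the arrays with high brain markers, against the direction of H2-Aa, H2AB1 and Cd74. These 4 were picked after their values were seen, so their number says nothing of immune genes in general. Among the other listed immune genes, S100a8 and Cx3cr1 also read highest there, while Ifngr1, Socs1 and Irf8 read lowest there. Whether the probes measure the genes they are named for is not known here. Ifng, a cytokine of T and NK cells, read 94.1 on SHT brain against 2667 on mock brain, 2428 on SHT ovary against 94.6 on mock ovary, and 129 on SHT uterus against 145 on mock uterus. Ncr1, an NK cell receptor, read 2140 on SHT ovary and 2052 on mock brain and at most 12.9 on the other arrays. Itgax, an integrin of dendritic cells and microglia, read 2789 on SHT ovary and 2756 on mock brain and 277 to 655 elsewhere. Irf1, a transcription factor induced by interferon that drives class I genes, read 3296 on SHT ovary and 3337 on mock brain and 1362 to 1797 elsewhere.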
